A study of Mus musculus with 24 samples.

Results

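Krt8, Krt18, Krt19 and Krt7 encode the keratins of single-layered epithelia, and Cldn4, Cldn6 and Cldn7 encode claudins, the membrane proteins that seal tight junctions. These 7 genes, of 18193 named by a single-gene probe set on the array, were followed through 24 Affymetrix MG 430 2.0 arrays of total RNA from undifferentiated 129/Sv mouse embryonic stem cells. The genes were chosen by name from an earlier look at the same arrays, in which several of them were among the genes with high values in the knock-in lines, so the contrasts with control are described here and not tested. All single-gene probe sets that the platform annotation gives to them were used: 3 for Krt8 and 1 for each of the other genes, 9 in all. The control cells carry 7 CAG repeats on both Hdh alleles and gave 6 arrays. Hdh, also written Htt, is the mouse gene for huntingtin. The knock-out cells, with the genotype null, gave 6 arrays. The knock-in lines gave 3 arrays each and carry 7 repeats on 1 allele and a longer stretch on the other: 16 repeats in Q20, 45, 45 and 43 in replicates 1, 2 and 3 of Q50, 85 in Q91 and 111 in Q111. Each knock-in group is 1 cell line, so a property of the line and its repeat number cannot be told apart. The labels call the arrays of a group biological replicates and name no clone, passage, batch or scan date, so the spread between them may come from the same culture stock.

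Keratins form intermediate filaments only as pairs of a type I and a type II chain. Krt8 and Krt7 are type II chains and Krt18 and Krt19 are type I chains, and the pair of Krt8 and Krt18 is the first keratin pair made in the mouse embryo, where it appears in the outer cells that become trophectoderm. Claudins of neighbouring cells bind each other across the intercellular space and set which ions and solutes pass. Cldn6 is known as an early epithelial claudin of embryonic cells, and Cldn4 and Cldn7 are widespread in simple epithelia such as gut, lung and kidney tubule.

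Krt8 and Krt18 are direct neighbours on chromosome 15 and lie on opposite strands, and Krt7 is on the same chromosome. The windows from 250 bases before to 50 bases after the annotated gene start are shown for this pair, whose values were alike on the arrays, for Cldn6, the claudin with the largest difference in each line, and for Cldn4, the claudin with the smallest difference in Q20, Q91 and Q111. They are RefSeq sequences of the build GRCm38.p6, printed along the strand of the gene at chr15:102004293-102004592 for Krt8 (minus strand), chr15:102027966-102028265 for Krt18 (plus strand), chr17:23679115-23679414 for Cldn6 (plus strand) and chr5:134946885-134947184 for Cldn4 (minus strand). Capitals mark a match, on either strand, to the letters searched: TATAAA for the TATA box, GGGCGG for the GC box, TGANTCA for the AP-1 motif, CAGGTG for the E-box and GGAATG for the TEAD motif.
Krt8: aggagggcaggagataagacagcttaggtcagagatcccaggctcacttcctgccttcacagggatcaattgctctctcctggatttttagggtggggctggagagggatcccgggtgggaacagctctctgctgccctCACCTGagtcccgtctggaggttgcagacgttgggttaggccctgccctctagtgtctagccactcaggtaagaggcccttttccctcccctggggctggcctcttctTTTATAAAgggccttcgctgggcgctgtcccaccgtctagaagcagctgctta
Krt18: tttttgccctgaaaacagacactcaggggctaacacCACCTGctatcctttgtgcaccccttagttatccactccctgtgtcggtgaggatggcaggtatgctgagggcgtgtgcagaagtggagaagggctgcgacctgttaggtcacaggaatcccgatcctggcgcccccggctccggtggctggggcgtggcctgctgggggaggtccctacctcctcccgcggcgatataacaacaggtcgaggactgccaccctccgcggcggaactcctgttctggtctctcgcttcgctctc
Cldn6: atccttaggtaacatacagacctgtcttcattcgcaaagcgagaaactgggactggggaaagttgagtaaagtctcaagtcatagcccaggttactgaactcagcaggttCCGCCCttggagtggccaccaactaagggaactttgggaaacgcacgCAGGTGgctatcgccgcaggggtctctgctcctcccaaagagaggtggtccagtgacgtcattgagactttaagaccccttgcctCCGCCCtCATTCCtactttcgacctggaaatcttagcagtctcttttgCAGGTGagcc
Cldn4: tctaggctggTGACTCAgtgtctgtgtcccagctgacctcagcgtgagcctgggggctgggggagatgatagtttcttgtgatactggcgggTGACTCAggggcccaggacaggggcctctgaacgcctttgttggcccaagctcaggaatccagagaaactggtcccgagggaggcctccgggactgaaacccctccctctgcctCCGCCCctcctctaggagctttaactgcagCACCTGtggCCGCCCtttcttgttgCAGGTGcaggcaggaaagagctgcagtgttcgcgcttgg

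The window table held 7 windows for 6 of the genes, 2 of them for Cldn7. CAGGTG or its complement stood in 6 of the 7 windows, against 20.2% of the 32851 windows in the table, and GGGCGG stood in 4, against 35.7%. TATAAA stood in 1 window, that of Krt8, where TATAAA and its overlapping complement began at positions -1 and -3 from the start (13.6% of all windows). TGANTCA stood in 1 window, that of Cldn4, at positions -240 and -158 from the start (7.81%). GGAATG stood in 2 windows, of Cldn6 and Cldn7 (14.7%). The GC content was 58.0% for Krt8, 61.3% for Krt18, 61.0% for Cldn4 and 52.3% for Cldn6, against a median of 52.7% over all windows. A match is a description of letters and not a binding site.

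All values below are the authors' log2 GCRMA values, in which 1 unit is a 2-fold difference, and values under 5 were taken as not told apart from background. A probe set was tested when it reached 5 on at least 3 of the 24 arrays. On this rule 8 of the 9 probe sets passed and the Krt7 probe set did not. Each of the 8 also reached 5 on at least 3 control arrays, Cldn6 on exactly 3. The probe set with the highest mean stood for its gene, which left 6 of the 7 genes among 9511 genes tested. For Krt8 this was 1423691_x_at. The ending x_at marks a probe set whose probes can also match other transcripts, so its absolute level is uncertain. Between 36.8% and 38.0% of probe sets reached 5 on each array. The median of the tested probe sets was 0.11 above control in Q20 and 0.12 above it in Q111, small beside the differences given below. The difference between 3' and 5' probe sets of Actb, a sign of RNA integrity, was 1.54 on Q50 replicate 3 and 0.75 to 1.03 on the other 23 arrays, so the Q50 differences of the 6 tested genes and the counts in Q50 are also given without that array. Htt averaged 8.01 ± 0.29 (SD, n = 6) in control and 7.21 ± 0.27 (SD, n = 6) in knock-out, so the knock-out arrays still gave signal on this probe set, and 6.96 to 7.54 in the 4 lines. The description label of the control and knock-out arrays states the opposite of their titles and genotypes, which were followed here.

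Krt8, the type II partner of Krt18, had 6 control values of 8.33, 8.65, 8.66, 7.30, 8.02 and 6.69. The knock-out values were 5.61, 6.76, 6.18, 7.93, 7.58 and 6.05. In Q20 the values were 13.37, 13.41 and 9.84, in Q50 10.10, 12.43 and 9.16, in Q91 12.27, 14.44 and 12.08, and in Q111 12.95, 13.03 and 12.46. Every knock-in array was above every control array, and the knock-out and control values overlapped. In RNA of whole cultures, more cells that express a gene and more RNA per cell cannot be told apart. The fitted difference from control was 4.26 (SE 0.78) in Q20, a 19.2-fold difference, 2.62 (SE 0.78) in Q50, 4.99 (SE 0.78) in Q91, a 31.7-fold difference, 4.87 (SE 0.78) in Q111 and -1.26 (SE 0.64) in knock-out. The other 2 Krt8 probe sets gave the same order of groups. 1420647_a_at differed from control by 4.43, 2.87, 5.27 and 5.12 in Q20, Q50, Q91 and Q111 and by -1.84 in knock-out, where only replicate 4, at 6.84, reached 5. 1435989_x_at differed by 3.82, 2.47, 4.51, 4.47 and -0.41 in the same comparisons.

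Krt18, the type I partner of Krt8, had control values of 8.19, 8.55, 8.61, 7.34, 8.29 and 8.62 and knock-out values of 7.04, 6.95, 7.06, 7.49, 7.63 and 7.33. The values were 13.51, 13.45 and 10.56 in Q20, 10.46, 12.33 and 9.45 in Q50, 12.54, 14.50 and 12.34 in Q91, and 13.07, 13.14 and 12.96 in Q111. Again every knock-in array lay above every control array, and 4 of 6 knock-out arrays lay below every control array. The differences from control were 4.24 (SE 0.59), 2.48 (SE 0.59), 4.86 (SE 0.59) and 4.79 (SE 0.59) in Q20, Q50, Q91 and Q111, and -1.02 (SE 0.48) in knock-out. Each differed from the corresponding Krt8 difference by less than 1 SE.

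Krt19, a type I keratin that can pair with Krt8 or Krt7, had control values of 7.27, 7.78, 7.51, 3.28, 6.82 and 6.73. Control replicate 4 was the only control array under 5. The knock-out values were 3.29, 3.68, 2.97, 5.58, 5.22 and 5.25, with replicates 1 to 3 under 5 and replicates 4 to 6 above it. The knock-in values were 12.57, 12.46 and 8.22 in Q20, 7.66, 10.29 and 6.62 in Q50, 10.85, 11.41 and 8.83 in Q91, and 12.14, 12.32 and 10.74 in Q111. All arrays of Q20, Q91 and Q111 were above every control array, whereas in Q50 only replicate 2 was. The differences from control were 4.52 (SE 1.04) in Q20, 1.62 (SE 1.04) in Q50, 3.80 (SE 1.04) in Q91, 5.17 (SE 1.04) in Q111 and -2.23 (SE 0.85) in knock-out.

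Krt7, the type II keratin typical of glandular and ductal epithelia, stayed near background. Its highest control value was 4.10 and its highest knock-out value 3.32. The values were 4.69, 4.82 and 4.48 in Q20, 3.71, 4.73 and 3.12 in Q50, 3.58, 7.18 and 4.62 in Q91, and 4.89, 4.78 and 4.60 in Q111. Q91 replicate 2 was the only array of 24 at or above 5. The differences from control in a fit without the filter, 1.27 (SE 0.49) in Q20 and 1.36 (SE 0.49) in Q111, therefore compare values under 5 with values under 5.

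**Figure D1:**
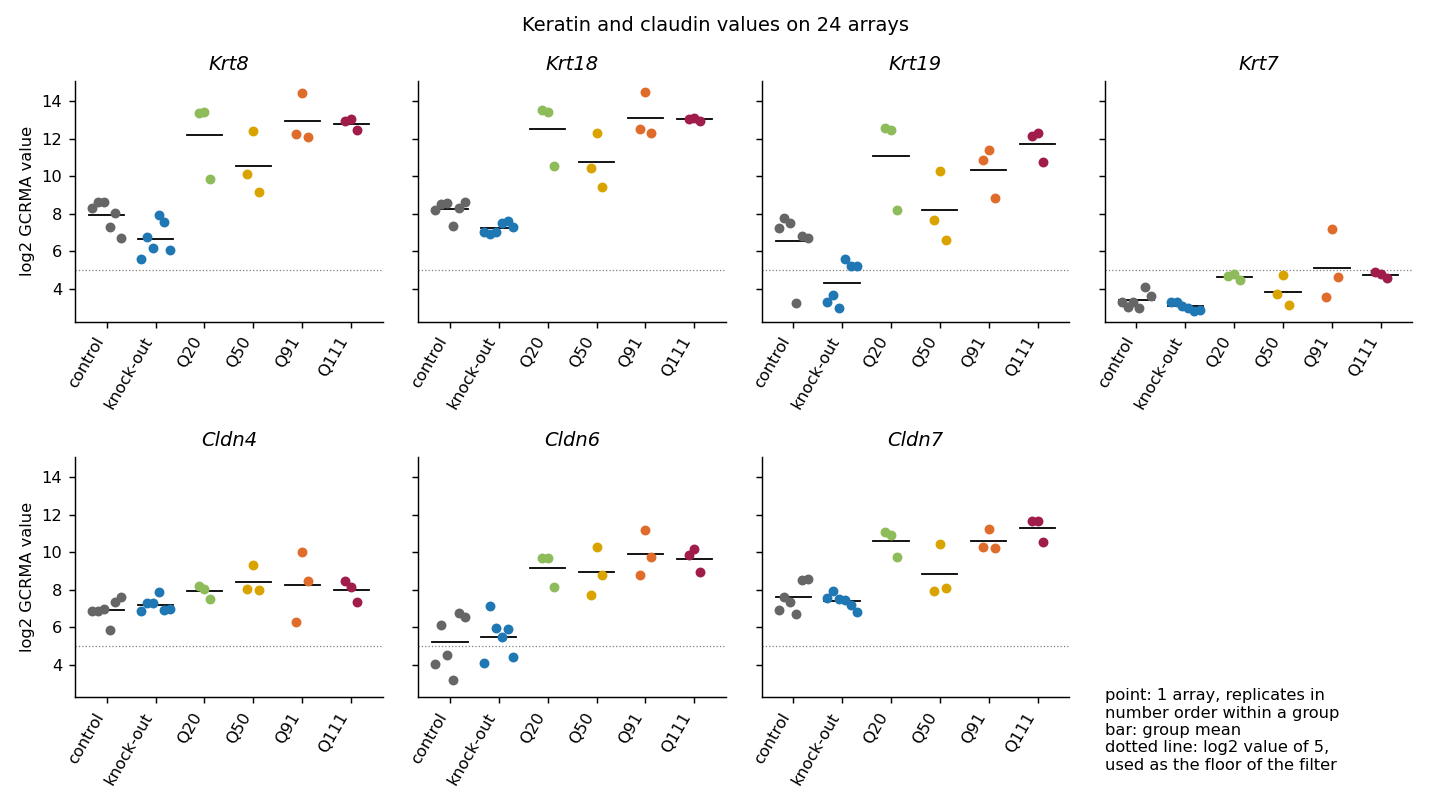
Log2 GCRMA value of each gene (vertical axis) in the 6 groups (horizontal axis), 1 point per array, with the group mean as a bar and the filter value of 5 as a dotted line. Krt8 and Krt18 are above every control array on all knock-in arrays, Q20 replicate 3 is far below the other Q20 arrays for Krt8, Krt18 and Krt19, and Krt7 reaches 5 on 1 array.

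Among the claudins, Cldn6 had the largest differences. Its control values of 4.02, 6.10, 4.53, 3.16, 6.78 and 6.56 spread on both sides of 5, as did the knock-out values of 4.09, 7.11, 5.94, 5.49, 5.91 and 4.39. The values were 9.67, 9.71 and 8.15 in Q20, 7.71, 10.26 and 8.80 in Q50, 8.79, 11.19 and 9.75 in Q91, and 9.86, 10.17 and 8.92 in Q111. Every knock-in array was above every control and every knock-out array. The differences from control were 3.98 (SE 0.79), 3.73 (SE 0.79), 4.72 (SE 0.79) and 4.46 (SE 0.79) in Q20, Q50, Q91 and Q111, and 0.30 (SE 0.65) in knock-out. Since 3 of 6 control values lie under 5, the size of these differences is less certain than their direction.

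Cldn7, a claudin of basolateral membranes as well as tight junctions, had control values of 6.94, 7.63, 7.35, 6.72, 8.51 and 8.56 and knock-out values of 7.53, 7.94, 7.50, 7.44, 7.17 and 6.79. The values were 11.06, 10.94 and 9.75 in Q20, 7.95, 10.44 and 8.07 in Q50, 10.25, 11.24 and 10.21 in Q91, and 11.64, 11.65 and 10.56 in Q111. All arrays of Q20, Q91 and Q111 were above every control array, and in Q50 only replicate 2 was. The differences were 2.96 (SE 0.50), 1.20 (SE 0.50), 2.95 (SE 0.50) and 3.67 (SE 0.50) in Q20, Q50, Q91 and Q111, and -0.22 (SE 0.41) in knock-out.

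Cldn4, a claudin of tight epithelia, had the smallest claudin difference in Q20, Q91 and Q111, but not in Q50. Its control values were 6.86, 6.85, 6.97, 5.84, 7.36 and 7.63, and its knock-out values 6.84, 7.27, 7.28, 7.87, 6.93 and 6.98. The values were 8.17, 8.02 and 7.52 in Q20, 8.03, 9.30 and 7.97 in Q50, 6.27, 10.01 and 8.44 in Q91, and 8.45, 8.13 and 7.35 in Q111. Only in Q50 was every array above every control array, and Q91 held both the lowest and the highest of the knock-in values. The differences were 0.98 (SE 0.53), 1.51 (SE 0.53), 1.32 (SE 0.53) and 1.06 (SE 0.53) in Q20, Q50, Q91 and Q111, and 0.28 (SE 0.43) in knock-out. Without Q91 replicate 2 the Q91 difference was 0.43, and without Q91 replicate 1 it was 2.30.

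**Figure D2:**
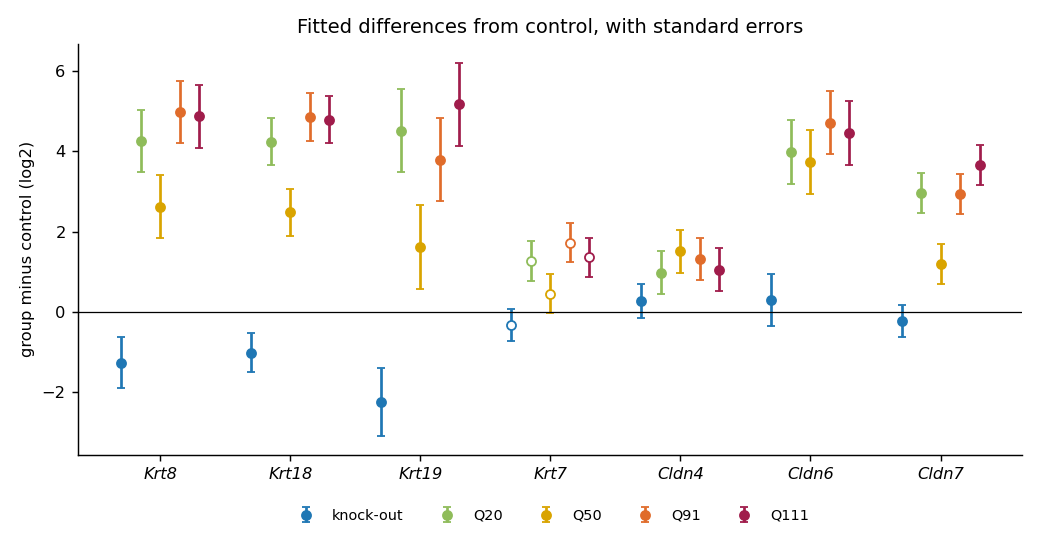
Fitted difference of each group from control on the log2 scale (vertical axis) for the 7 genes (horizontal axis), with bars of 1 standard error and 1 colour per group. Open points are Krt7, which lay below the filter. The 3 tested keratins have negative differences in knock-out, down to -2.23 for Krt19, and the Q50 points of the keratins and Cldn7 lie below those of the other lines.

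The counts of calls below are given beside the share of all 9511 genes called and are not support, since the genes were chosen on these contrasts. With limma and Benjamini-Hochberg adjustment over all 17980 tested probe sets at 0.05, 5 of 6 genes were called higher in Q20, where 16.3% of all genes were higher and 10.4% lower. Likewise 5 were higher in Q91 (13.4% higher and 11.3% lower over all genes) and 5 in Q111 (16.4% and 11.1%). In these 3 lines the gene not called was Cldn4. In Q50 3 genes were called higher, Krt8, Krt18 and Cldn6, where 5.08% of all genes were higher and 2.43% lower. None of the 6 was called lower in a knock-in line. In knock-out 0 were called higher and 0 lower, where 7.55% of all genes were higher and 8.8% lower. Every array lay above every control array for 5 of 6 genes in Q20 (16.7% of all genes), 4 in Q50 (8.01%), 5 in Q91 (13.0%) and 5 in Q111 (17.8%). In knock-out 0 of 6 had every array below every control array (6.86%). The median difference of the 6 genes was 4.11 in Q20, 2.05 in Q50, 4.26 in Q91, 4.62 in Q111 and -0.62 in knock-out, and the median over all genes ranged from -0.02 to 0.03. Without Q50 replicate 2 the count in Q50 was 0 and the median difference 1.38. Without Q50 replicate 3, the array with the high Actb difference, the count was 3 and the median 2.77.

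The order of the group means was knock-out, control, Q50, Q20 and then Q111 and Q91 for Krt8 and Krt18. Only the step from control to Q50 separated neighbouring groups without overlap of their arrays, by 2.62 for Krt8 and 2.48 for Krt18. For Cldn6 the only such step was from knock-out to Q50, by 3.43. For Krt19, Krt7, Cldn4 and Cldn7 no neighbouring groups in the order were free of overlap. Fitted as a straight line over the longer allele of the 12 knock-in arrays, the change per 100 repeats was 1.44 (SE 1.13) for Krt8, 1.39 (SE 1.03) for Krt18, 1.38 (SE 1.47) for Krt19, 0.80 (SE 0.69) for Cldn6, 1.27 (SE 0.84) for Cldn7 and 0.006 (SE 0.70) for Cldn4. No slope was as large as 2 SE. The SE treats the 12 arrays as independent, although arrays of 1 line share nearly the same repeat number, so it may be too small. The line with the fewest repeats, Q20, was above Q50 for Krt8, Krt18, Krt19, Krt7, Cldn6 and Cldn7, and below it for Cldn4.

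Within the lines the same arrays were high or low for several genes. The mean of Krt8, Krt18 and Krt19 was 5.56 and 5.52 above the control mean on Q20 replicates 1 and 2 and 1.95 above it on replicate 3. In Q50 it was 1.82, 4.09 and 0.82 above control on replicates 1, 2 and 3, in Q91 4.30, 5.86 and 3.49, and in Q111 5.13, 5.24 and 4.47. The mean of Cldn4, Cldn6 and Cldn7 was 3.06, 2.98 and 1.90 above control in Q20, 1.32, 3.42 and 1.70 in Q50, 1.86, 4.24 and 2.89 in Q91, and 3.41, 3.41 and 2.37 in Q111. Thus Q20 replicate 3 and Q111 replicate 3 were the lowest of their lines on both means, and replicate 2 of Q50 and of Q91 the highest. Without Q20 replicate 3 the Q20 differences were 5.45 for Krt8, 5.22 for Krt18, 5.95 for Krt19, 4.50 for Cldn6 and 3.38 for Cldn7. Without Q50 replicate 2 the Q50 differences were 1.69 for Krt8, 1.69 for Krt18, 0.57 for Krt19, 3.06 for Cldn6 and 0.39 for Cldn7, with 1.08 for Cldn4. Without Q50 replicate 3 they were 3.33 for Krt8, 3.13 for Krt18, 2.41 for Krt19, 1.74 for Cldn4, 3.79 for Cldn6 and 1.58 for Cldn7.

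**Figure D3:**
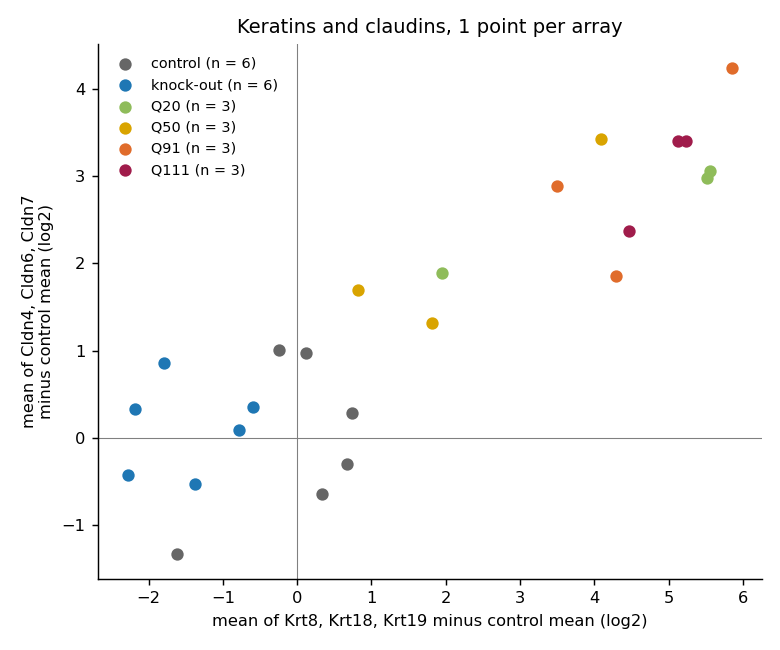
Each point is 1 array, with the mean of Krt8, Krt18 and Krt19 (horizontal axis) and of Cldn4, Cldn6 and Cldn7 (vertical axis), both as log2 distance from the control mean. The knock-in arrays spread from 0.82 to 5.86 on the keratin axis, and the knock-out arrays lie to the left of 0 on the keratin axis and on both sides of 0 on the claudin axis.

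In knock-out the differences of Krt8, Krt18 and Krt19 were all negative, at -1.26, -1.02 and -2.23, and those of the 3 claudins lay between -0.22 and 0.30. The contrast between the gene families was not tested. The keratin mean was 2.28, 1.79 and 2.19 below control on knock-out replicates 1 to 3 and 0.59, 0.78 and 1.38 below it on replicates 4 to 6. In control, replicates 1 to 3 were 0.34, 0.74 and 0.67 above the group mean, and replicates 4 to 6 were at -1.62, 0.12 and -0.24. Fitted with replicates 1 to 3 of both groups alone, the knock-out differences were -2.36 (SE 0.92) for Krt8, -1.43 (SE 0.77) for Krt18 and -4.21 (SE 1.07) for Krt19, whose 3 knock-out values here lie under 5, so that its size is uncertain. With replicates 4 to 6 alone they were -0.15 (SE 0.97), -0.60 (SE 0.80) and -0.26 (SE 1.23). The labels give no reason to split the replicates, and the difference between the 2 subsets was not tested. No keratin or claudin was called in knock-out in the fit of all arrays, and Krt19 was called lower with replicates 1 to 3 alone (-4.21), without control replicate 4 (-2.89) and without Q20 replicate 3 (-2.23). With only control and knock-out in the fit, Krt18 and Krt19 were called lower.

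Removing the group means leaves the spread between arrays of a group. The genes were chosen from an earlier look at these same arrays, so the correlations below are not independent of that choice. Their p-values are a description and not support. All 15 pairs of the 6 tested genes correlated positively over the 24 arrays. Krt8 and Krt18 had a Pearson r of 0.87 (permutation p = 0.00192 with arrays permuted within groups, 0.0048 after Benjamini-Hochberg adjustment over the 15 pairs, two-sided) and a Spearman rho of 0.81 (permutation p = 0.00218, adjusted 0.00545). Krt18 and Krt19 had an r of 0.85 (permutation p = 2e-05, adjusted 2.25e-04) and a rho of 0.88 (permutation p = 8e-05, adjusted 5.62e-04). Cldn6 and Cldn7 had an r of 0.83 (permutation p = 3e-05, adjusted 2.25e-04) and a rho of 0.83 (permutation p = 5e-05, adjusted 5.62e-04). The 9 pairs of a keratin with a claudin had r of 0.45 to 0.71. Their adjusted permutation p was 0.00647 to 0.0415 for r and 0.00619 to 0.0824 for rho. By r with the mean of Krt8 and Krt18, group means removed, Cldn7 ranked 599 of 9511 genes, Cldn4 769 and Cldn6 1055. Krt19 ranked 54. Many other genes therefore followed the mean of Krt8 and Krt18 more closely than the claudins did, so this covariation is not particular to the claudins.

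Without the 2 arrays farthest from the median of the first gene, r was 0.68 for Krt8 and Krt18, 0.72 for Krt18 and Krt19 and 0.81 for Cldn6 and Cldn7. The arrays left out were Q20 replicate 3 and Q50 replicate 2 for the pairs that begin with Krt8 or Krt18, and control replicate 4 and knock-out replicate 2 for Cldn6 and Cldn7. At that setting the 3 keratin pairs and the 3 claudin pairs passed the adjusted threshold, and the 9 mixed pairs did not (r of 0.12 to 0.68, adjusted permutation p of 0.139 to 0.638). For the 3 mixed pairs that begin with Krt19 the arrays left out were control replicate 4 and Q20 replicate 3. The size of r without these arrays was lower in 8 of the 9 mixed pairs, most for Krt8 and Cldn7 (0.53 to 0.12), and was not lower for Krt18 and Cldn4 (0.62 to 0.68), so for the latter pair the call was lost and not the correlation. On the 12 knock-in arrays alone r was 0.996 for Krt8 and Krt18, and on the 12 control and knock-out arrays it was 0.43. For Cldn6 and Cldn7 it was 0.89 and 0.84 on the same subsets.

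**Figure D4:**
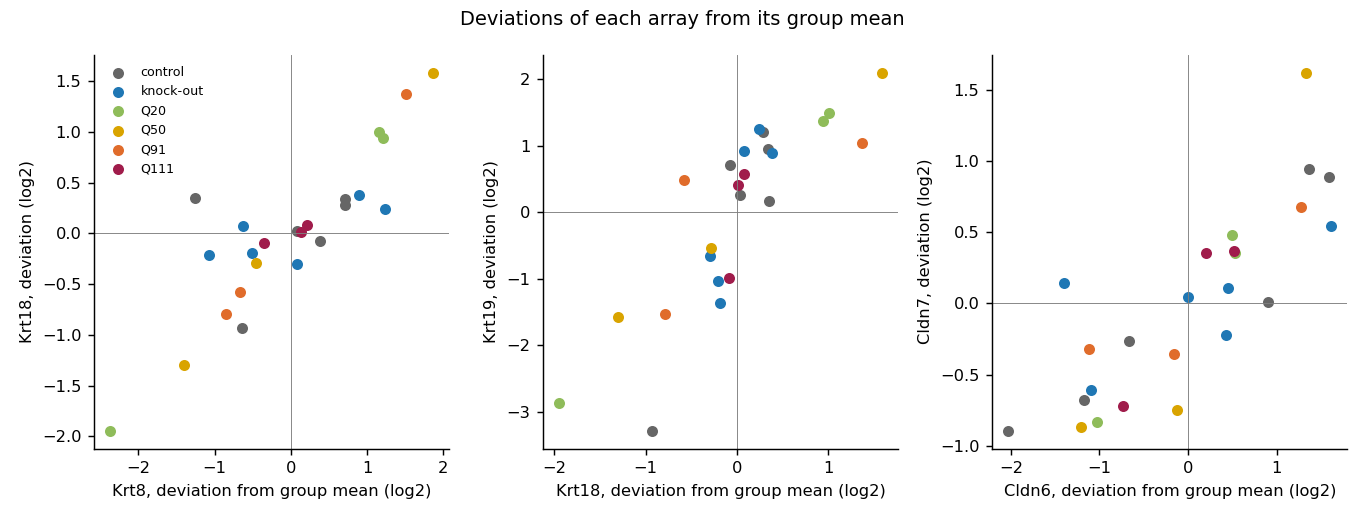
Deviation of each of the 24 arrays from its group mean on the log2 scale, for Krt8 against Krt18, Krt18 against Krt19 and Cldn6 against Cldn7, coloured by group. Q20 replicate 3 is at -2.37 for Krt8 and -1.95 for Krt18, and control replicate 4 is at -3.29 for Krt19.

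The genes most like the mean of Krt8 and Krt18 were ranked by Pearson r over the 24 arrays, as a description. The first 10 other genes were Anxa3, an annexin that binds membranes with calcium (r = 0.991), Prtg (0.985), the collagen receptor Ddr1 (0.984), the matrix glycoprotein Thbs1 (0.984), Tmcc3 (0.981), Dock11 (0.980), the actin-binding tropomyosin Tpm1 (0.979), the lipid droplet protein Plin2 (0.979), Sema3e (0.977) and Nrep (0.975). Krt19 had r = 0.950, Cldn7 0.929, Cldn6 0.889 and Cldn4 0.643, while 6.29% of all genes had r of 0.8 or more. Anxa3 averaged 5.85 in control, 4.35 in knock-out and 10.4, 8.99, 11.7 and 11.1 in Q20, Q50, Q91 and Q111. After removal of the group means the first 10 were Prtg (0.965), Anxa3 (0.940), the desmosome plaque protein Dsp, which anchors keratin filaments (0.932), Ddr1 (0.930), Tpm1 (0.926), Thbs1 (0.925), Sh3yl1 (0.919), Plin2 (0.917), Dock11 (0.914) and the actin-binding Tagln (0.914). At that setting 1.3% of all genes had r of 0.8 or more, Krt19 had 0.849, Cldn7 0.626, Cldn4 0.582 and Cldn6 0.522. All of these correlations share the same 24 arrays and the same groups.

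Genes next to the 7 on the chromosome mostly lay below the filter. Krt78 (3.75 in control), Krt15 (1.83), Krt80 (2.17), Cldn3 (3.02), Cldn9 (3.55) and Slc2a4 (4.26) stayed under 5 in every group mean, and Krt9 and Krt87 had no single-gene probe set by name. Eif4b, the translation factor gene on the other side of Krt18, had differences of -0.11 to 0.04 with no limma call (adjusted p of 0.467 to 0.895). Mettl27, beside Cldn4, had differences of -0.16 to 0.09 with no limma call (adjusted p of 0.254 to 0.772). Tnfrsf12a, the TWEAK receptor gene beside Cldn6, averaged 6.39 in control and rose by 2.21 in Q20 (limma adjusted p = 5.54e-04), by 1.66 in Q50 (0.0155), by 2.80 in Q91 (5.63e-05) and by 2.26 in Q111 (3.86e-04). In Q50 this call was lost without Q50 replicate 2 (difference 1.36) or Q50 replicate 3 (1.58). Elp5, beside Cldn7, rose by 0.64 in Q20 (limma adjusted p = 0.0118), a call lost without Q20 replicate 1 (0.61).

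Of 105 other junction, filament and epithelial genes listed, 102 were on the array and 59 passed the filter. Of these 59, 24 rose and 4 fell in Q20 (16.3% and 10.4% of all genes), 9 rose and 1 fell in Q50 (5.08% and 2.43%), 23 rose and 2 fell in Q91 (13.4% and 11.3%), 24 rose and 4 fell in Q111 (16.4% and 11.1%), and 7 rose and 2 fell in knock-out (7.55% and 8.8%). These shares of all genes are also the background for the smaller lists that follow. The median differences of the 59 were 0.35, 0.25, 0.53, 0.37 and 0.04. Genes that passed the filter only through knock-in arrays had to differ, so their values are given with no p. Among the 51 that reached 5 on at least 3 controls, 19 rose and 4 fell in Q20, 8 rose and 1 fell in Q50, 18 rose and 2 fell in Q91, 17 rose and 4 fell in Q111, and 7 rose and 2 fell in knock-out. Their medians were 0.18, 0.23, 0.37, 0.21 and 0.07. The settings that follow count over all 59. The number that rose in Q20 was 14 without Q20 replicate 1, and in Q50 it was 4 without Q50 replicate 2 and 3 with the replicate block. Without Q50 replicate 3, 8 rose and 0 fell there. In knock-out the number that rose was 2 without control replicate 2, without control replicate 3 or without knock-out replicate 3. Without the filter it was 2 of the 102 on the array.

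Of 16 other keratins listed, 13 lay below the filter, among them Krt5 and Krt14 of basal stratified epithelium. Krt17, a keratin of skin appendages and stressed epithelium, averaged 6.73 ± 0.44 (SD, n = 6) in control and rose in knock-out by 1.44 (limma adjusted p = 0.0231), opposite in sign to the values of Krt8, Krt18 and Krt19. That call was lost without control replicate 3 or knock-out replicate 2 or 3, and without the filter (adjusted p = 0.0616). With replicates 4 to 6 of control and knock-out alone the Krt17 difference was 0.58 (adjusted p = 0.648). Krt17, Krt10 and Krt42 had no call in any knock-in line. Of 16 other claudins and claudin-like genes only Cldn12 and Cldnd1 passed the filter. Cldn12 rose by 0.57 in Q20 (limma adjusted p = 0.00142), 0.62 in Q91 (7.41e-04) and 0.58 in Q111 (0.0011), with 0.14 in Q50. Cldnd1 rose in Q20 by 0.59 (limma adjusted p = 0.0488), a call lost in most alternatives.

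Of 14 tight junction and polarity genes, 6 rose in Q20, 3 in Q50, 7 in Q91 and 8 in Q111, and none fell in a line. Among the 10 that reached 5 on at least 3 controls these numbers were 4, 3, 5 and 4. Amotl2, an angiomotin family scaffold at junctions, averaged 8.26 ± 0.17 (SD, n = 6) in control and rose by 1.79, 1.11, 2.26 and 1.84 in Q20, Q50, Q91 and Q111 (limma adjusted p = 1.96e-04, 0.0231, 1.6e-05 and 1.28e-04). It fell by 1.02 in knock-out (limma adjusted p = 0.0065), the only gene of this group that did, with -0.95 (adjusted p = 0.176) with replicates 4 to 6 alone. Its Q50 call was lost without Q50 replicate 2 (0.87) or Q50 replicate 3 (1.12). Marveld2, or tricellulin, the protein of 3-cell contacts, was at 3.73 in control and at 5.21, 4.34, 5.15 and 5.78 in Q20, Q50, Q91 and Q111, and reached 5 on no control array, so it passed the filter only through the knock-in arrays.

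Of 11 adherens junction genes, 5 rose and 1 fell in Q20, 2 rose and 1 fell in Q50, 3 rose in Q91, 5 rose and 1 fell in Q111, and 4 rose in knock-out. The gene that fell was Nectin1 each time, and the 4 in knock-out were the catenin genes Ctnna1 and Ctnnb1, Afdn and Vcl, all named after their values were seen. Nectin3, a cell adhesion molecule of the nectin family, rose by 1.10, 1.17, 0.82 and 0.90 in Q20, Q50, Q91 and Q111 (limma adjusted p = 1.29e-04, 4.78e-04, 0.00169 and 6.23e-04). Epcam, an epithelial adhesion molecule that binds claudins, stood at 12.2 ± 0.21 (SD, n = 6) in control and rose by 1.04, 0.97, 1.07 and 0.85 (limma adjusted p = 3.65e-04, 0.00296, 2.69e-04 and 0.0016). These calls were kept without any 1 array. Of 8 desmosome and linker genes, 3 rose in Q20, 0 in Q50, 3 in Q91 and 3 in Q111. Among the 6 that reached 5 on at least 3 controls these numbers were 2, 0, 2 and 2. Dsp rose from 7.53 ± 0.36 (SD, n = 6) by 3.12 in Q20, 3.42 in Q91 and 3.65 in Q111 (limma adjusted p = 7.3e-04, 3.12e-04 and 1.59e-04), and its difference of 1.60 in Q50 did not pass (0.0946). Dsc2, a desmosomal cadherin, averaged 4.17 in control, 4.18 in knock-out and 5.80, 4.51, 6.77 and 6.54 in Q20, Q50, Q91 and Q111. It reached 5 on no control array and passed the filter only through knock-in arrays.

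Of 11 epithelial regulators and surface proteases, 4 rose and 2 fell in Q20, 4 rose in Q50, 5 rose and 1 fell in Q91, and 4 rose and 2 fell in Q111. Among the 10 that reached 5 on at least 3 controls 3, 3, 4 and 3 rose, and the numbers that fell were the same. Grhl3, a grainyhead transcription factor of surface epithelium, fell by 1.05 in Q91 and by 1.11 in Q111 (limma adjusted p = 0.0063 and 0.00361) and rose by 0.74 in knock-out (0.0231). Prss8, a membrane serine protease known as prostasin, averaged 4.65 in control, where 1 array reached 5, so the sizes of its differences are uncertain. It rose by 2.29, 2.00, 2.53 and 2.22 in Q20, Q50, Q91 and Q111 (limma adjusted p = 0.00149, 0.0134, 6.49e-04 and 0.00169). Esrp1, an epithelial splicing regulator, rose from 8.26 ± 0.66 (SD, n = 6) by 1.74, 1.64, 1.98 and 1.81 (limma adjusted p = 0.00284, 0.0139, 0.00106 and 0.00192). In Q50 both calls were lost without Q50 replicate 2 (1.58 and 1.40). Of 7 other intermediate filament genes, 3 rose and 1 fell in Q20, 0 rose in Q50, 3 rose in Q91 and 2 in Q111. Among the 6 that reached 5 on at least 3 controls 2 rose and 1 fell in Q20, 0 rose in Q50, 2 rose in Q91 and 1 in Q111. Nes, the filament protein of neural progenitors, averaged 3.91 in control, 3.07 in knock-out and 6.72, 5.40, 7.19 and 7.22 in Q20, Q50, Q91 and Q111, and likewise passed the filter only through knock-in arrays. Nefl, the light neurofilament chain, rose from 7.99 by 2.43 in Q20, 2.58 in Q91 and 2.13 in Q111 (limma adjusted p = 0.00104, 6.36e-04 and 0.00257). Its difference of 1.28 in Q50 was not called.

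Of 8 regulators and markers of the epithelial to mesenchymal transition, 3 passed the filter. Cdh2, N-cadherin, rose from 6.09 ± 0.62 (SD, n = 6) by 2.79 in Q20, 2.99 in Q91 and 2.45 in Q111 (limma adjusted p = 1.76e-04, 8.01e-05 and 4.55e-04), and fell by 1.39 in knock-out (0.0138). Its knock-out mean of 4.71 lay under 5, so the size of that fall is uncertain. With the mean of its probe sets the knock-out difference was -0.70 (adjusted p = 0.213), and with replicates 4 to 6 alone it was -1.14 (adjusted p = 0.295). Zeb1, a repressor of epithelial genes, fell by 2.28 in Q91 and by 1.75 in Q111 (limma adjusted p = 0.00653 and 0.0276), with -1.53 in Q20 (0.0535) and -0.84 in Q50 (0.382). The Zeb1 mean in Q91 was 4.51, under 5, so the size of that fall is uncertain. The Q91 call was lost without Q91 replicate 2 (-1.55), and the Q111 call without control replicate 1 or 3 or Q111 replicate 1 or 2.

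**Figure D5:**
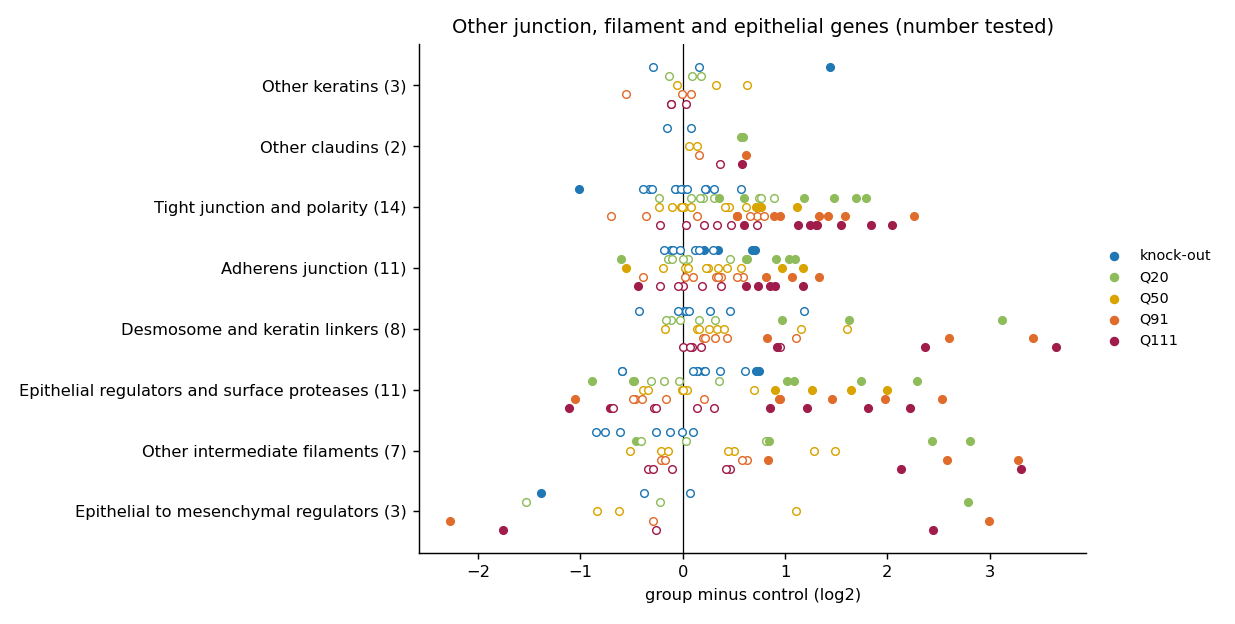
Fitted difference from control (horizontal axis, log2) of the 59 other junction, filament and epithelial genes that passed the filter, by list (vertical axis, number tested in brackets) and group (colour). Filled points passed the adjusted threshold of 0.05, and 8 of the genes reached 5 on fewer than 3 control arrays. Dsp, Nes and Cdh2 reach the largest rises, up to 3.65 for Dsp in Q111.

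Markers of other cell types were read on the same arrays. All 8 embryonic stem cell markers, such as Pou5f1 and Nanog, averaged above 5 in every group. Of these, 4 fell in Q20, 0 in Q50, 5 in Q91 and 4 in Q111, with Esrrb down by 1.37, 1.40 and 1.24 in Q20, Q91 and Q111 (limma adjusted p = 2.02e-04, 1.45e-04 and 3.86e-04). The summed linear signal of the 8 ranged from 161593 to 174893 on control arrays and from 167628 to 177396 in knock-out. For the lines the ranges of this sum were 156982 to 175338 (Q50), 128736 to 156701 (Q20), 126695 to 153671 (Q91) and 133087 to 166333 (Q111). Of 11 trophoblast markers, Cdx2, Elf5, Gata3 and Hand1 stayed under 5 in every group and 4 were tested. Eomes rose by 1.06 in Q20, 1.14 in Q91 and 1.62 in Q111 (limma adjusted p = 0.0155, 0.0111 and 6.62e-04). Tead4 averaged 4.60 in control, 5.32 in knock-out, 3.72 in Q20 and up to 4.28 in the other lines. It was called higher in knock-out and lower in Q20, but only its knock-out mean was above 5. No knock-in array reached 5, so Tead4 passed the filter mainly through the knock-out arrays, and its knock-out call is not support. Its highest value was 5.00 in control and 4.05 in Q20, so the Q20 call compares values near or under 5. Tfap2c, with -0.31, 0.006, -0.49 and -0.68 in Q20, Q50, Q91 and Q111, and Ascl2 had no call. The sum of the 11 ranged from 2105 to 3453 in control, 2209 to 3387 in knock-out and from 1356 to 3723 over the knock-in arrays. On the linear scale this sum rests mostly on Tfap2c, at 11.3 in control, with Eomes next at 5.38. It therefore says little about the other markers of the list. Of 12 primitive and visceral endoderm markers, Gata4, Gata6, Sox17 and Sox7 were under 5 in every group and none of the 3 tested was called, with sums of 426 to 879 in control and 373 to 1582 over the knock-in arrays. Likewise this sum rests mostly on Lama1, at 8.77 in control, with Dab2 next at 5.44. All 5 definitive endoderm markers and the 4 mesoderm markers on the array stayed under 5. Of 7 surface ectoderm markers, Krt5, Krt14, Krt15, Trp63 and Tfap2a had group means under 5. The sum of the 7 ranged from 261 to 386 in control, 447 to 800 in knock-out and 161 to 608 over the knock-in arrays. This sum rests mostly on Krt17, at 6.73 in control and 8.17 in knock-out, and Grhl3, at 7.24 and 7.98. It too says little about the other markers of its list.

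Of 10 fibroblast markers, which would also mark feeder cells, Dcn and Lum stayed under 3 in every group. Col1a1 averaged 3.73 in control, 3.56 in knock-out and 7.98, 4.02, 7.48 and 8.40 in Q20, Q50, Q91 and Q111. Col1a2 averaged 2.68 in control, 2.66 in knock-out and 3.65, 2.61, 4.01 and 5.08 in the same lines. Both collagen genes reached 5 on no control array and passed the filter only through knock-in arrays. The other 2 tested markers had negative differences in every group. Thy1, at 5.97 in control, fell by 2.66 in knock-out (limma adjusted p = 0.00154). Its knock-out values, 2.27 to 4.64, all lay under 5, so the size of that fall is uncertain. In Q20, Q50, Q91 and Q111 Thy1 had -1.31, -1.67, -0.87 and -0.63 without a call. Pdgfrb had -0.20 in knock-out and -0.36, -1.05, -0.84 and -0.27 in the lines without a call. The sum of the 10 ranged from 101 to 218 on control arrays and from 83.7 to 114 in knock-out. For the lines the ranges were 93.4 to 113 (Q50), 177 to 626 (Q20), 141 to 547 (Q91) and 349 to 659 (Q111). The part of other cell types in the keratin and claudin values was not tested.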

How the data were processed

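Total RNA of 24 samples was hybridised to Affymetrix MG 430 2.0 arrays. The deposited values are on the log2 scale, and the submitters' processing notes name GCRMA as the authors' tool, with its version and chip definition not given in the sources used here. GCRMA corrects background by probe sequence and normalises between arrays, so a global shift between groups is removed and low values are compressed. Of 45101 probe sets, 64 Affymetrix controls were left out. Genes were taken from the platform annotation: 34945 probe sets had 1 gene, 932 several and 9160 none. The 17980 probe sets (39.92%) with a log2 value of at least 5 on at least 3 arrays entered a limma fit (version 3.58.1, R 4.3.3, 1 mean per group, no covariate) with all 6 groups sharing the spread. Genes were represented by the probe set with the highest mean, leaving 9511 genes. Calls used Benjamini-Hochberg adjusted p under 0.05 over all tested probe sets. The slope over repeats used the 12 knock-in arrays. The fit was tested on simulated data.

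The genes studied and all lists were chosen with earlier results of these data known. Other genes were named by rule: the 2 genes of each list with the smallest p in any comparison, the genes next to each studied gene in RefSeq order, the 10 most like the mean of Krt8 and Krt18, and the marker lists. Covariation used 100000 permutations of arrays within groups. Groups follow the titles, group and genotype labels. Since nothing says that replicates came from separate cultures, a p-value reflects only how these arrays spread, which may be technical. No protein sequences were used, and Krt19 had no promoter window. Alternatives covered the filter, normalisation, choice of probe set, variance model, replicate block, arrays entering the fit and each array left out in turn.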

Additional observations from a re-analysis of the deposited data

Results flagged for a closer look

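Each of the 9 probe sets was examined in control and in knock-out, which gave 18 sets of 6 values. Of these, 3 held an array whose gap to its nearest neighbour, divided by the range, was above Dixon's critical value of 0.625. Chance alone gives about 1 such set in 20 when sets are independent. These sets share the same arrays, and control replicate 4 was flagged for both Krt18 and Krt19, so the count was not set against chance. On the Krt8 probe set 1420647_a_at, knock-out replicate 4 was at 6.84 and the other knock-out arrays at 3.82 to 4.63. For Krt18, control replicate 4 was at 7.34 and the other control arrays at 8.19 to 8.62. For Krt19, control replicate 4 was at 3.28 and the other control arrays at 6.73 to 7.78.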

How the results depend on the processing

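Counts and medians of the studied genes, counts of the wider list and the count of correlated pairs were compared with their main values. A count was taken as kept when it equalled the main count or stayed within a fixed ratio of it. A kept count could therefore still have gained or lost calls. A median was taken as kept when it held its sign and moved by less than 1 SD of the arrays. On this rule 507 of 540 values were kept with 1 array left out and 248 of 272 under other settings. The counts of studied genes higher in Q20, Q91 and Q111 stayed between 4 and 6 in all of them. For Q50 the count of 3 became 1 with replicates 1 to 3 of control and knock-out, 0 with replicates 4 to 6, and 0 to 4 with 1 array left out. The count lower in knock-out, 0, became 2 with only the groups compared, 1 with replicates 1 to 3, and 0 to 1 with 1 array left out. For the wider list, the 7 that rose in knock-out became 2 without the filter, 4 with replicates 1 to 3, 0 with replicates 4 to 6, and 2 to 8 with 1 array left out. The 2 that fell became 4 with the mean of probe sets, 6 with only the groups compared and 1 with replicates 1 to 3. The 24 that rose in Q20 became 15 with replicates 4 to 6 and 14 to 26 with 1 array left out, and the 4 that fell became 2 with replicates 1 to 3, 0 with replicates 4 to 6 and 1 to 6 with 1 array left out. The 9 that rose in Q50 became 2 with replicates 4 to 6 and 4 to 13 with 1 array left out, and the 1 that fell became 2 with median centring, 0 with replicates 4 to 6 and 0 to 2 with 1 array left out. The 2 that fell in Q91 became 5 with quantile normalisation, 5 with median centring and 0 to 4 with 1 array left out. The 4 that fell in Q111 became 1 without the filter, 1 with replicates 4 to 6 and 1 to 5 with 1 array left out. In knock-out the Cldn6 difference turned to -0.24 with replicates 4 to 6 and ranged from -0.11 to 0.61 with 1 array left out, and that of Cldn7 turned to 0.35 with replicates 1 to 3. The Cldn4 slope turned to -0.0057 with median centring and ranged from -0.27 to 0.30 with 1 array left out. Of the 15 correlated pairs, 10 passed with median centring. Those lost were all pairs of a keratin with a claudin, each at an adjusted permutation p of 0.0533. Without the 2 farthest arrays 6 passed, and 2 on the 12 control and knock-out arrays, where Krt8 and Cldn7 had r = -0.17. The causes were not tested, beyond the fewer arrays that some of these settings hold. The subsets of 12 arrays and the Krt8 probe set 1420647_a_at as its representative were chosen after seeing the data.

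Control arrays deviated in the opposite direction to knock-out arrays of the same replicate number, with negative r in all 6 pairs (-0.41 to -0.26). The reason was not tested. With arrays of the lines r lay on both sides of 0 (-0.11 to 0.13). The lines were not compared with each other in this way. In every line replicate 3 had the lowest mean of Krt8, Krt18 and Krt19. It was 1.95, 0.82, 3.49 and 4.47 above the control mean in Q20, Q50, Q91 and Q111. With the replicate block, 5, 2, 5 and 5 studied genes were higher in Q20, Q50, Q91 and Q111, with median differences of 4.12, 2.08, 4.30 and 4.66, and of the wider list 3 rose and 0 fell in Q50. Values under 5 are not told apart from background, which limits Krt7, the control values of Cldn6 and the knock-out values of Krt19. Among the other genes it also limits the falls of Thy1 and Cdh2 in knock-out and of Zeb1 in Q91.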
